A study of Homo sapiens with 15 samples.

Results

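The cells of this study are MDA-MB-231, an established human breast cancer cell line, and the genes described here are 10 transporters that carry amino acids across membranes, taken by symbol from the 18858 genes of the count table. The members are SLC7A5, SLC3A2, SLC1A5, SLC38A1, SLC38A2, SLC7A11, SLC7A1, SLC1A4, SLC7A6 and SLC43A2, and all 10 were found and tested. Control cells got no siRNA, and siControl cells got a pool without a target. In siYAP the pool was directed at YAP1, in siTAZ at WWTR1, which encodes TAZ, and siYAP+TAZ cells received both of these pools. The transfected cells had 48 h of knockdown, and all cells spent 5 to 6 h on gelatin ahead of the extraction of RNA, of which the polyadenylated part was sequenced. Each of the 5 groups had 3 libraries, numbered 16, 21 and 26 for Control, 17, 22 and 27 for siControl, 18, 23 and 28 for siYAP, 19, 24 and 29 for siTAZ and 20, 25 and 30 for siYAP+TAZ. Since siYAP+TAZ cells received both pools, a larger amount of siRNA cannot be told apart from the loss of both genes.

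Amino acid transporters differ in what they carry and how. SLC7A5 (LAT1) exchanges large neutral amino acids such as leucine and works only when joined to SLC3A2 (4F2hc, CD98), the heavy chain that brings several light chains to the cell surface. SLC7A6 (y+LAT2) and SLC7A11 (xCT, the cystine and glutamate exchanger) are further light chains of SLC3A2. SLC7A1 (CAT1) carries cationic amino acids such as arginine without a heavy chain. SLC1A5 (ASCT2) and SLC1A4 (ASCT1) exchange small neutral amino acids, with glutamine among the substrates of SLC1A5. SLC38A1 (SNAT1) and SLC38A2 (SNAT2) take up glutamine and other neutral amino acids with sodium, and SLC43A2 (LAT4) lets branched-chain amino acids and other large neutral ones pass by facilitated diffusion. YAP and TAZ are coactivators of the Hippo pathway that act mainly through TEAD transcription factors. ATF4 is a transcription factor of the response to amino acid shortage, and several transporter genes are among its known targets.

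Short stretches of the promoters of the members are shown because transcription factors of this response read such letters. They were taken from RefSeq windows of GRCh38.p14 that run from 250 bases before to 50 after a start site. Windows were matched for 9 of the 10 members, 17 windows in all, and for SLC7A11 none was matched. In the stretches below, each written 5′ to 3′ on the strand of the gene, capitals mark the composite C/EBP-ATF element TGATGNAA in either orientation.
SLC1A4: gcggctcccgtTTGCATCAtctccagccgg
SLC3A2: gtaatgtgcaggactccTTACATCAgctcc
SLC38A1: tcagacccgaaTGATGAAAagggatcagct
SLC7A1: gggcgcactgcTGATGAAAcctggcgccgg
SLC1A5: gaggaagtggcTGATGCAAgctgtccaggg
These stretches lie at chr2:64989381-64989410 on the plus strand, chr11:62881719-62881748 on the plus strand, chr12:46266502-46266531 on the minus strand, chr13:29595663-29595692 on the minus strand and chr19:46784893-46784922 on the minus strand. The element was found in 5 of the 17 windows, 29.4%, and in 3.62% of the 35116 promoter windows of all genes. Of the 9 members, 5 have 2 or 3 windows and 4 have 1, and the 5 matches belong to 5 genes. In the next pair, capitals mark the E-box CACGTG, which reads the same on both strands and is bound by MYC and related factors.
SLC7A5: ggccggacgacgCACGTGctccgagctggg
SLC1A5: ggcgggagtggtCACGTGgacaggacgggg
They lie at chr16:87869620-87869649 and chr19:46787326-46787355, both on the minus strand. The E-box was found in 2 of the 17 windows and in 7.26% of all windows. The core of the TEAD motif, CATTCC, was found in 2 windows, of SLC43A2 and SLC1A5, beside 14% of all windows. The antioxidant response element TGACNNNGC was found in 5 windows, of SLC3A2, SLC7A1, SLC7A6, SLC7A5 and SLC1A5, beside 13.3% of all windows. Both strands were searched, and a match describes letters only.

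The libraries held between 18696737 and 30107312 counted reads, with a median of 22902846. Values are normalized counts, the reads of a gene scaled to the mean library by the TMM method, and levels are relative to the other RNA of a library, so that less RNA per cell cannot be told apart from fewer cells that make it. YAP1 stood at 23.4%, 64.0% and 17.6% of the siControl mean in the siYAP libraries 18, 23 and 28, and at 51.8%, 51.0% and 41.5% in siYAP+TAZ. WWTR1 stood at 45.8%, 14.1% and 28.8% in siTAZ, and at 62.7%, 62.1% and 71.0% in siYAP+TAZ. By edgeR's quasi-likelihood test, WWTR1 in siTAZ was called (adjusted p = 0.0187), whereas YAP1 was not called in siYAP (adjusted p = 0.0992) or siYAP+TAZ (adjusted p = 0.0723), nor WWTR1 in siYAP+TAZ (adjusted p = 0.199). VIM, CD44, EGFR, KRT8 and KRT18, genes of this cell line, were read in every library, and ESR1, CDH1, CD3E and CDH5 had no row in the table. Of the markers of other cells that had one, PTPRC lay between 0 and 5.10 normalized counts, and PECAM1 rose from 17.9, 15.7 and 8.58 in siControl to 131, 158 and 66.1 in siYAP+TAZ (adjusted p = 9.09e-06). Its part in the results was not tested. On the second principal component, which held 17.6% of the variance, libraries 26 to 30 and the siTAZ library 24 stood apart from the others. Values within each run of consecutive numbers (16 to 20, 21 to 25 and 26 to 30) are therefore given beside the results, though no source states that a run is an experiment.

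Per length of exon, the members covered a wide range of levels. In siControl, SLC7A5 was at 326 ± 6.79 RPKM (reads scaled for exon length and library size; SD, n = 3), SLC1A5 at 155 ± 12.4, SLC3A2 at 91.4 ± 0.878 and SLC7A1 at 63.7 ± 1.51. These 4 levels did not overlap between the members. SLC38A1 followed at 28.6 ± 3.29 and SLC38A2 at 23.8 ± 5.83, and the libraries of that pair overlapped, from 24.8 to 30.6 and from 17.0 to 27.3. SLC7A11 was at 7.68 ± 1.56, SLC7A6 at 4.89 ± 0.307, SLC1A4 at 2.64 ± 0.183 and SLC43A2 at 0.493 ± 0.153, and their libraries kept this order without overlap. The 10 members together took 0.348% to 0.379% of the counted reads in siControl, 0.288% to 0.324% in siYAP, 0.337% to 0.391% in siTAZ, 0.274% to 0.307% in siYAP+TAZ and 0.357% to 0.414% in Control.

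**Figure D1:**
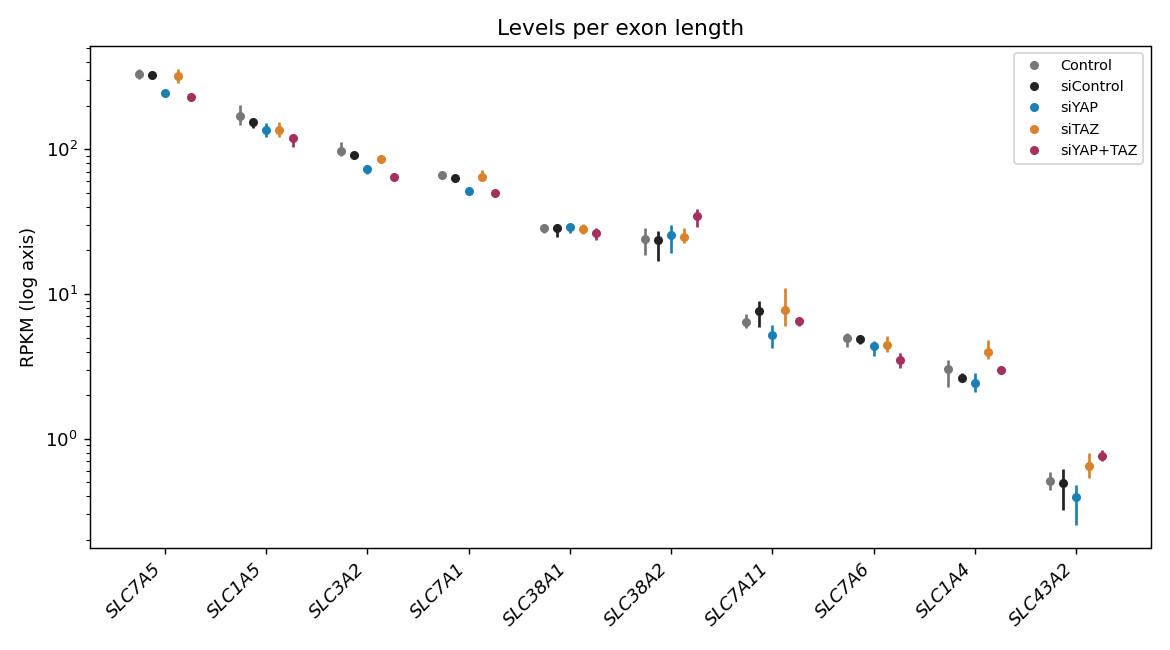
Level of each transporter per exon length (RPKM, log axis) by group, with points at the mean of 3 libraries and bars from the lowest to the highest library. SLC7A5 was at 326 RPKM in siControl and SLC43A2 at 0.493.

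The co-knockdown addressed what happens when both coactivators are targeted together. The RNAs of SLC7A5, SLC3A2, SLC7A1, SLC7A6 and SLC1A5 were lower in siYAP+TAZ than in siControl. Their mean levels were 70.1% to 78.1% of those in siControl. With calls made up to an adjusted p of 0.05, 5 of the 10 members were called, all lower, beside 8.39% of all genes called lower and 9.97% called higher. The members were chosen with earlier results of these data known, so their counts beside all genes are a description only. None of the 10 also reached an absolute log2 fold change of 1, which 3.46% of all genes did. The median log2 fold change was -0.30 over the members and -0.0048 over all genes.

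**Figure D2:**
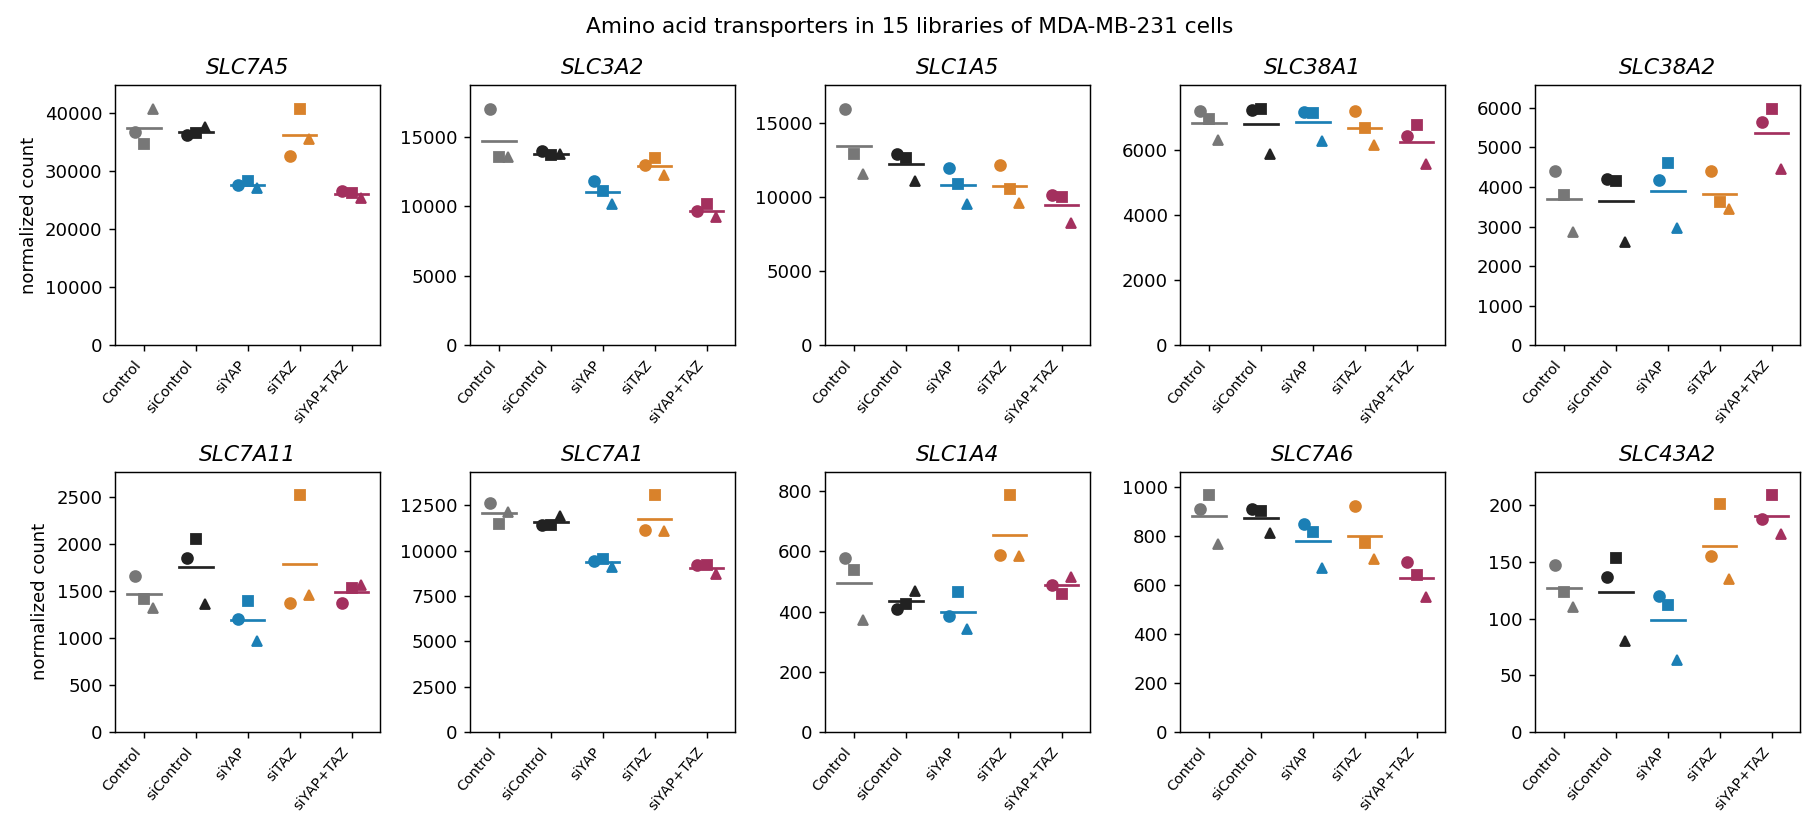
Normalized counts of the 10 transporters in all 15 libraries (y axis from 0), with lines at the group means; circles are libraries 16 to 20, squares 21 to 25 and triangles 26 to 30. SLC7A5, SLC3A2 and SLC7A1 in siYAP+TAZ lie below every siControl library, and SLC38A2 and SLC43A2 above.

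SLC7A5 (chr16:87830023-87869507, minus strand) had 36116, 36420 and 37567 normalized counts in siControl. In siYAP+TAZ it had 26565, 26226 and 25326. The groups were far apart beside their spread, and the log2 fold change was -0.50 ± 0.080 (SE, adjusted p = 0.000301). Within the 3 runs the log2 ratio was -0.44, -0.47 and -0.57. SLC3A2 (chr11:62856004-62888880, plus strand), its partner, had 13957, 13702 and 13767 in siControl and 9642, 10167 and 9215 in siYAP+TAZ. Its libraries did not overlap either, and its log2 fold change of -0.51 ± 0.086 (adjusted p = 0.000412) lay close to that of SLC7A5. Within runs it was -0.53, -0.43 and -0.58.

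SLC7A1 (chr13:29509414-29595688, minus strand) had 11427, 11424 and 11901 normalized counts in siControl and 9201, 9224 and 8717 in siYAP+TAZ, without overlap. Its log2 fold change was -0.36 ± 0.071 (adjusted p = 0.00173), with -0.31, -0.31 and -0.45 within runs. SLC7A6 (chr16:68264516-68301823, plus strand) had 912, 905 and 813 in siControl and 697, 643 and 552 in siYAP+TAZ. All 3 of its siYAP+TAZ libraries were below the siControl libraries, with a log2 fold change of -0.48 ± 0.119 (adjusted p = 0.00834), and without library 30 the adjusted p was 0.0504. Genes on the opposite strand cover 55.6% of its exonic bases, and whether reads were counted by strand is not stated. SLC7A6OS, its overlapping partner, had a log2 fold change of -0.30 ± 0.109 (adjusted p = 0.0692).

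SLC1A5 (chr19:46774883-46788594, minus strand) had 12888, 12655 and 11091 normalized counts in siControl and 10143, 10030 and 8237 in siYAP+TAZ. These groups did not overlap, and the log2 fold change was -0.37 ± 0.123 (adjusted p = 0.0469). It was near the threshold, and it was no longer called when library 17, 20, 22, 25 or 30 was left out, with values from -0.43 to -0.27 over the left-out libraries. Within runs it was -0.35, -0.34 and -0.43, and opposite-strand genes cover 23.8% of its exonic bases.

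SLC38A2 and SLC43A2 had higher values in siYAP+TAZ but did not pass the threshold of the edgeR test that assumed no pairing. SLC38A2 (chr12:46358188-46372773, minus strand) had 4203, 4145 and 2620 normalized counts in siControl and 5637, 5982 and 4451 in siYAP+TAZ. Every siYAP+TAZ library was above every siControl library, and libraries 27 and 30 were the lowest of their groups. The log2 fold change was 0.55 ± 0.225 (adjusted p = 0.12), and within runs it was 0.42, 0.53 and 0.76. It was called higher in 3 of 17 alternatives, among them DESeq2 (0.56, adjusted p = 0.0281) and the fit without libraries 26 to 30 (0.49, adjusted p = 0.000689). The other was edgeR with each run of numbers as a block (adjusted p = 8.11e-05), though the runs are not a stated pairing. With any 1 library left out it was not called, and without library 27 the log2 fold change was 0.36 (adjusted p = 0.307). SLC43A2 (chr17:1569268-1628886, minus strand), the least abundant member, had 137, 153 and 80.5 in siControl and 188, 208 and 174 in siYAP+TAZ. These groups did not overlap, with a log2 fold change of 0.61 ± 0.232 (adjusted p = 0.0788) and 0.46, 0.44 and 1.12 within runs. It was called in 2 of 17 alternatives, edgeR with the same block (adjusted p = 0.00104) and the fit without libraries 26 to 30 (0.46, adjusted p = 0.0497). With any 1 library left out it was not called, and without library 27 the value was 0.39 (adjusted p = 0.268). In all, 5 members were lower and 2 higher in every siYAP+TAZ library than in every siControl library, beside 18.2% of all genes in each direction.

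The last 3 members overlapped between the groups. SLC38A1 (chr12:46183063-46270017, minus strand) had a log2 fold change of -0.12 ± 0.096 (adjusted p = 0.448, 95% interval -0.32 to 0.08). SLC1A4 (chr2:64988477-65023865, plus strand) was at 0.17 ± 0.152 (adjusted p = 0.502, interval -0.15 to 0.49). SLC7A11 (chr4:138164097-138242349, minus strand) was at -0.24 ± 0.227 (adjusted p = 0.542, interval -0.73 to 0.26), and its libraries had 1845, 2051 and 1359 normalized counts in siControl and 1375, 1528 and 1560 in siYAP+TAZ. Against Control in place of siControl, the 5 members called were lower as well, beside 9.07% of all genes lower.

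**Figure D3:**
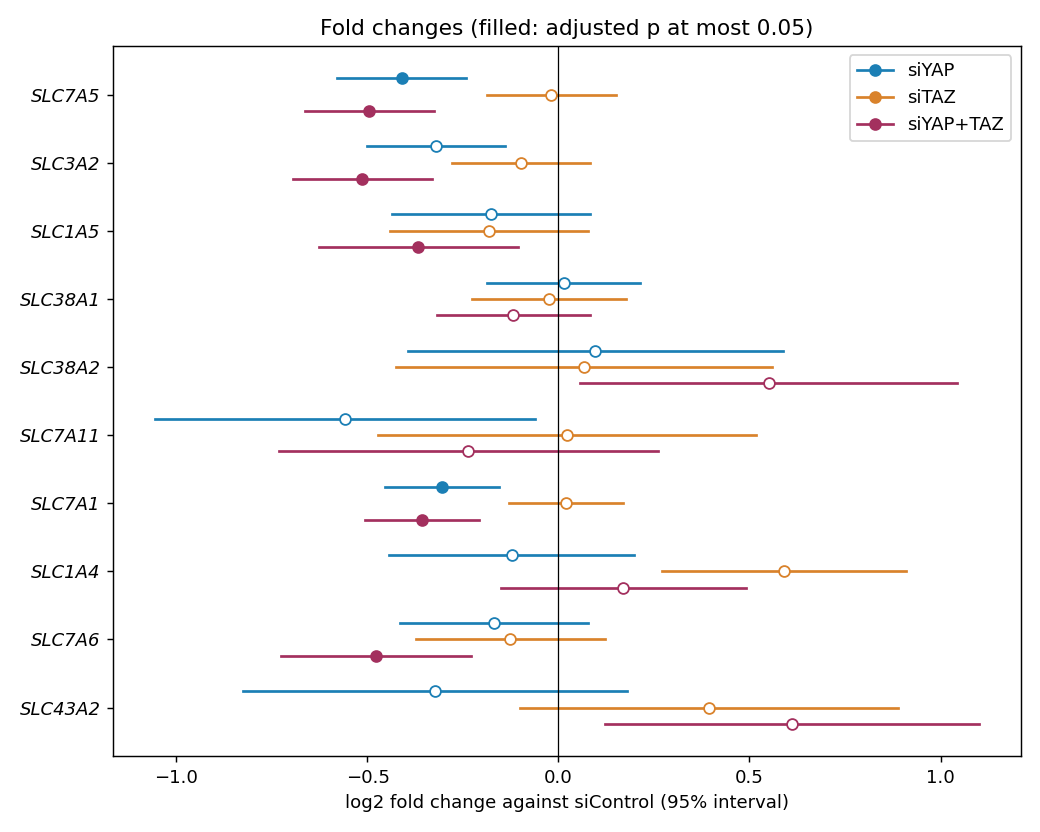
Log2 fold change of each transporter against siControl in the 3 knockdowns, as points with 95% intervals; filled points have an adjusted p of at most 0.05. SLC7A5 and SLC7A1 were called in siYAP, and those and SLC3A2, SLC1A5 and SLC7A6 in siYAP+TAZ.

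The single knockdowns addressed the share of each coactivator. In siYAP, SLC7A5 and SLC7A1 were lower than in siControl, and these 2 of the 10 members were called beside 0.456% of all genes called lower. SLC7A5 had 27537, 28177 and 27102 normalized counts in siYAP, all under the siControl libraries, with a log2 fold change of -0.41 ± 0.080 (adjusted p = 0.0163). Within runs it was -0.39, -0.37 and -0.47. SLC7A1 had 9446, 9562 and 9111, also without overlap, at -0.31 ± 0.071 (adjusted p = 0.0486) and -0.27, -0.26 and -0.39 within runs. Both calls were lost when any 1 of the 6 libraries, 17, 18, 22, 23, 27 or 28, was left out, although the log2 fold change of SLC7A5 then stayed between -0.42 and -0.39.

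In siYAP, YAP1 was at 23.4%, 64.0% and 17.6% of the siControl mean in libraries 18, 23 and 28. SLC7A5 was at 75.0%, 76.8% and 73.8% in the same libraries, so both were highest in library 23 and lowest in library 28. The relation was not tested. In the siYAP+TAZ libraries 20, 25 and 30, SLC7A5 was at 72.4%, 71.5% and 69.0% and YAP1 at 51.8%, 51.0% and 41.5%.

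**Figure D4:**
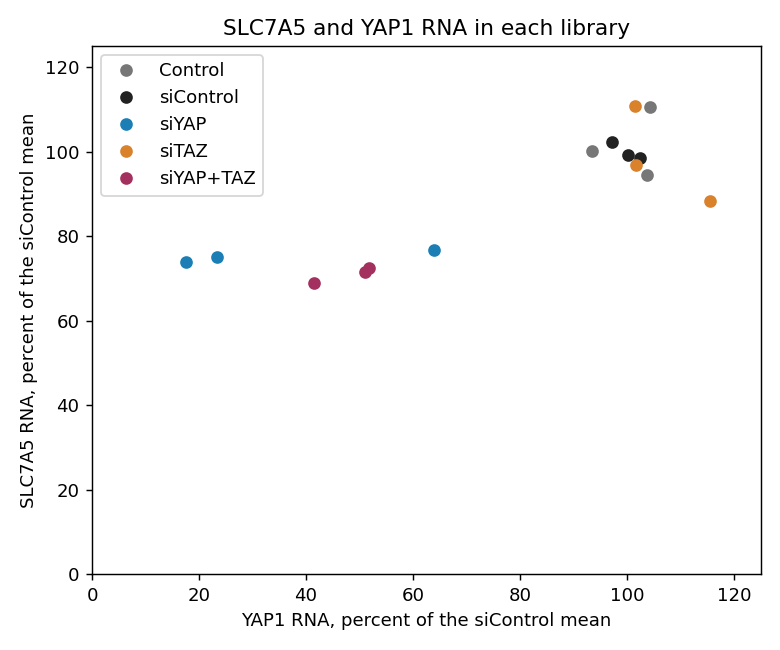
SLC7A5 RNA against YAP1 RNA in each of the 15 libraries, both as percent of the siControl mean. The siYAP libraries spread from 17.6% to 64.0% on the YAP1 axis and from 73.8% to 76.8% on the SLC7A5 axis.

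SLC3A2 had 11858, 11145 and 10145 normalized counts in siYAP, below all siControl libraries, with a log2 fold change of -0.32 ± 0.086 that edgeR did not call (adjusted p = 0.0879) and DESeq2 did (adjusted p = 0.0457). SLC7A11 had 1203, 1396 and 964 in siYAP, which overlapped siControl at 1396 and 1359, and a log2 fold change of -0.56 ± 0.228 (adjusted p = 0.345). Within runs it was -0.62, -0.56 and -0.50. The other members in siYAP were SLC43A2 at -0.32 ± 0.238 (adjusted p = 0.664), SLC1A5 at -0.18 ± 0.123 (adjusted p = 0.637), SLC7A6 at -0.17 ± 0.117 (adjusted p = 0.634) and SLC1A4 at -0.12 ± 0.152 (adjusted p = 0.837). SLC38A1 at 0.01 ± 0.096 and SLC38A2 at 0.10 ± 0.225 lay nearest to no difference (adjusted p = 0.983 and 0.938). With 1 library left out, SLC43A2 ran from -0.54 without library 27 to -0.10 without library 28 and was not called. Against Control, SLC7A5, SLC3A2 and SLC7A1 were called lower in siYAP, beside 0.758% of all genes called lower.

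In siTAZ none of the 10 members was called by edgeR, beside 2.03% of all genes, and 1 had an unadjusted p under 0.05, beside 16% of all genes. DESeq2 called 1 of them, SLC1A4, and limma-voom 0. SLC1A4 had 410, 424 and 468 normalized counts in siControl and 590, 786 and 584 in siTAZ. Every siTAZ library was higher, library 24 the most, with a log2 fold change of 0.59 ± 0.151 (adjusted p = 0.0523) and 0.52, 0.89 and 0.32 within runs. Without library 19 it was called, and likewise without libraries 26 to 30 (0.73, adjusted p = 0.00371). SLC7A5 was at -0.02 ± 0.080 (adjusted p = 0.944, 95% interval -0.19 to 0.15) and SLC7A1 at 0.02 ± 0.071 (adjusted p = 0.929, interval -0.13 to 0.17). SLC3A2 was at -0.10 ± 0.086 (adjusted p = 0.639), SLC1A5 at -0.18 ± 0.123 (adjusted p = 0.512) and SLC7A6 at -0.13 ± 0.118 (adjusted p = 0.667). SLC43A2 was at 0.39 ± 0.234 (adjusted p = 0.444), and with 1 library left out it ran from 0.17 without library 27 to 0.58 without library 22 and was not called. SLC38A2 was at 0.07 ± 0.225 (adjusted p = 0.928), SLC7A11 at 0.02 ± 0.227 (adjusted p = 0.98) and SLC38A1 at -0.02 ± 0.096 (adjusted p = 0.938). Against Control, 0 members were called in siTAZ beside 3.4% of all genes, and 3 had an unadjusted p under 0.05, beside 19.3% of all genes.

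**Figure D5:**
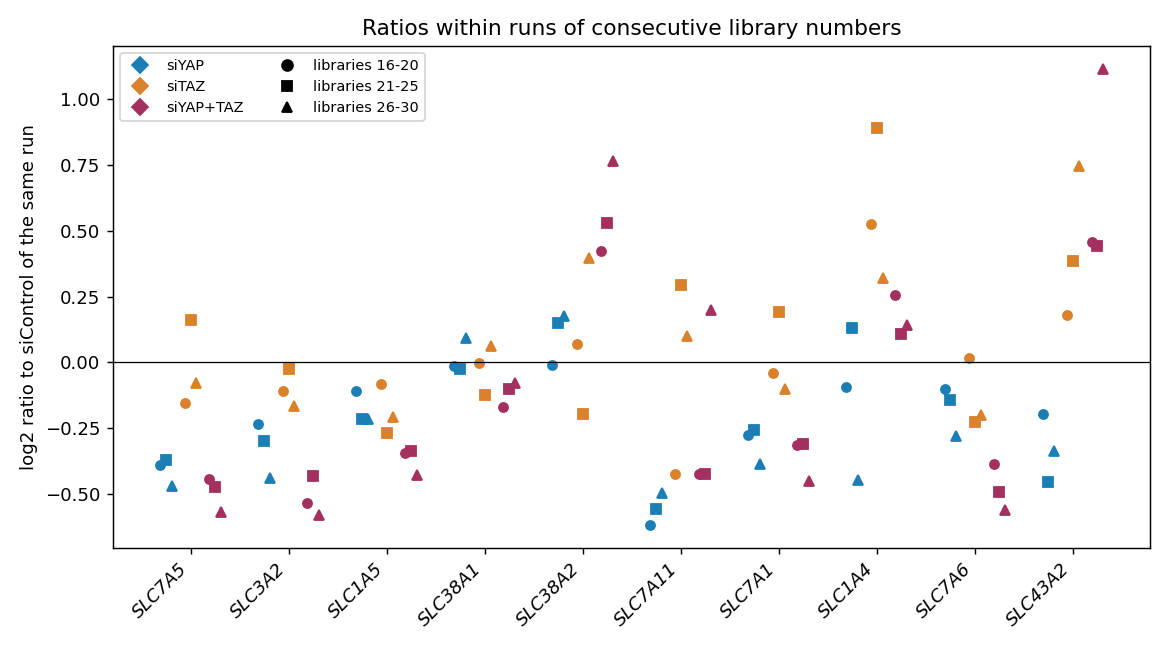
Log2 ratio of each knockdown library to the siControl library of the same run of consecutive numbers, for the 10 transporters; symbols mark the runs and colours the knockdowns. SLC7A5 in siYAP+TAZ lies between -0.57 and -0.44, and SLC38A2 between 0.42 and 0.76.

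The knockdowns were also compared with each other. SLC7A5, SLC7A1 and SLC1A4 were higher in siTAZ than in siYAP, 3 of 10 members beside 0.472% of all genes called higher. The log2 differences were 0.39 ± 0.080 for SLC7A5 (adjusted p = 0.035), 0.33 ± 0.071 for SLC7A1 (adjusted p = 0.0427) and 0.71 ± 0.151 for SLC1A4 (adjusted p = 0.0409), and for each the 6 libraries did not overlap. All 3 calls were lost when only these 2 groups entered the fit and when library 18, 24, 28 or 29 was left out, and without library 23 only SLC1A4 was called. With 1 library left out, the log2 difference ran from 0.29 to 0.47 for SLC7A5, 0.23 to 0.37 for SLC7A1 and 0.55 to 0.82 for SLC1A4. The 7 members not called ran from -0.04 for SLC38A1 to 0.72 for SLC43A2 (adjusted p = 0.184).

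Between siYAP+TAZ and siTAZ, 3 members were lower, beside 2.38% of all genes called lower. They were SLC7A5 at -0.48 ± 0.080 (adjusted p = 0.00208), SLC7A1 at -0.38 ± 0.071 (adjusted p = 0.00451) and SLC3A2 at -0.42 ± 0.086 (adjusted p = 0.0084). These were called with each library left out in turn. The other 7 ran from -0.42 for SLC1A4 (adjusted p = 0.123) to 0.48 for SLC38A2 (adjusted p = 0.269). WWTR1 itself was higher in every siYAP+TAZ library than in every siTAZ library, at means of 65.2% and 29.6% of siControl. The loss of WWTR1 RNA was therefore not equal in these groups.

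Between siYAP+TAZ and siYAP, SLC43A2 was the only member called, beside 5.13% of all genes called and 3.43% called higher. It had 120, 112 and 63.7 normalized counts in siYAP and 188, 208 and 174 in siYAP+TAZ, a log2 difference of 0.93 ± 0.234 (adjusted p = 0.0278). The call was lost without library 20, 23, 25 or 28. SLC7A5 differed by -0.08 ± 0.080 (adjusted p = 0.634, 95% interval -0.25 to 0.08) and SLC7A1 by -0.05 ± 0.071 (adjusted p = 0.768, interval -0.20 to 0.10). For SLC7A5, every siYAP+TAZ library was below every siYAP library, which held for 11.7% of all genes. The remaining members ran from -0.31 for SLC7A6 (adjusted p = 0.152) to 0.45 for SLC38A2 (adjusted p = 0.306).

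The interaction asks whether the co-knockdown differs from the sum of the single effects on the log2 scale. This presumes an equal loss of each target alone and together. Mean WWTR1, however, was at 29.6% of siControl in siTAZ and 65.2% in siYAP+TAZ. Unequal loss of the targets cannot be told apart from a departure from the sum. By edgeR 0 members were called, beside 0.0106% of all genes, and 0 had an unadjusted p under 0.05, beside 5.85% of all genes. The estimates ran from -0.30 ± 0.214 for SLC1A4 to 0.54 ± 0.331 for SLC43A2. Between siControl and Control, edgeR called 0 members and 0% of all genes, and 0 members but 398 of all genes (2.11%) had an unadjusted p under 0.05, while DESeq2 and limma-voom called 0 genes. The members ran from -0.20 ± 0.153 for SLC1A4 to 0.26 ± 0.228 for SLC7A11.

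SLC7A1 followed SLC7A5 most closely of 10639 genes whose mean level reached 100 normalized counts. Across all 15 libraries, Pearson's r of the log2 levels was 0.975 and Spearman's rho 0.943, given as a description of libraries that share groups and depth. Next came LATS2 (r = 0.954), a kinase of the Hippo pathway, AMOTL2 (r = 0.951), a junction protein that binds YAP, NCAPH2 (r = 0.938), a condensin subunit, and CDC45 (r = 0.937), a part of the replicative helicase. SLC3A2, the obligate partner of SLC7A5, ranked at 105 with r = 0.861. SLC38A2 was the member with the most negative value, r = -0.56.

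Of 39 other transporters of amino acids, 19 were in the table, and in siYAP+TAZ 3 were called higher and 2 lower, beside 9.97% and 8.39% of all genes called higher and lower. SLC6A9, a glycine transporter, rose from a mean of 572 to 1152 normalized counts (adjusted p = 0.0308). SLC1A1, a glutamate transporter, had a log2 fold change of 0.60 ± 0.168 (adjusted p = 0.0178) and SLC66A1, a lysosomal exporter of cationic amino acids, one of 0.25 ± 0.085 (adjusted p = 0.0452). SLC16A10, a carrier of aromatic amino acids, was at -0.68 ± 0.228 (adjusted p = 0.0452) and SLC7A2, a second cationic carrier, at -0.58 ± 0.145 (adjusted p = 0.0105). The list's median log2 fold change was 0.04. In siYAP and in siTAZ 0 of the 19 were called by edgeR, and 2 and 6 had an unadjusted p under 0.05, beside 11.9% and 16% of all genes.

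Of ATF4 and its target genes, 6 of 20 were called lower and 1 higher in siYAP+TAZ, beside 8.39% and 9.97% of all genes. The median log2 fold change was -0.22 over the list and -0.0048 over all genes. ATF4 itself had 7989, 8065 and 7208 normalized counts in siControl and 6672, 7067 and 5768 in siYAP+TAZ. Its mean was 6653 in siYAP and 8232 in siTAZ. PSAT1, an enzyme of serine synthesis, was at -0.41 ± 0.080 (adjusted p = 0.00132), MTHFD2, of mitochondrial one-carbon metabolism, at -0.39 ± 0.085 (adjusted p = 0.00333) and CEBPG, a transcription factor that pairs with ATF4, at -0.32 ± 0.082 (adjusted p = 0.00941). DDIT4, an inhibitor of mTORC1 signalling, was at 1.27 ± 0.380 (adjusted p = 0.0395). In siYAP and in siTAZ 0 of the 20 were called by edgeR, and 4 and 3 had an unadjusted p under 0.05, beside the same 11.9% and 16%.

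Of 25 genes of amino acid sensing by mTORC1, the kinase complex that leucine and arginine switch on, 4 were called higher and 1 lower in siYAP+TAZ, beside 9.97% and 8.39% of all genes. SESN3, a sestrin, was at 1.13 ± 0.220 (adjusted p = 0.00138), CASTOR2, of the arginine sensor family, at 0.87 ± 0.184 (adjusted p = 0.00268) and RRAGA, a Rag GTPase, at 0.34 ± 0.082 (adjusted p = 0.00659). RHEB, the GTPase that activates mTORC1, was at -0.27 ± 0.081 (adjusted p = 0.0282). In siYAP and in siTAZ edgeR called 0 of the 25, and 1 and 4 had an unadjusted p under 0.05, beside 11.9% and 16% of all genes. Of 17 enzymes that use the carried amino acids, 2 were called lower and 0 higher, beside 8.39% and 9.97% of all genes. They were ODC1, which makes putrescine from the arginine product ornithine, at -0.53 ± 0.081 (adjusted p = 0.000157) and GOT1, an aspartate aminotransferase, at -0.31 ± 0.083 (adjusted p = 0.0136). In siTAZ 1 of the 17, ODC1, was called lower, at -0.36 ± 0.081 (adjusted p = 0.0263), beside 0.695% of all genes called lower. In siYAP edgeR called 0 of the 17, and 2 had an unadjusted p under 0.05, beside 11.9% of all genes.

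NRF2, a regulator of SLC7A11, and its target genes were called in both directions in siYAP+TAZ, 2 of 10 higher and 2 lower, beside 9.97% and 8.39% of all genes. HMOX1, a heme oxygenase, was at 0.54 ± 0.173 (adjusted p = 0.0407). MAFF, a small MAF protein, was at -0.56 ± 0.117 (adjusted p = 0.00263) and TXNRD1, a thioredoxin reductase, at -0.29 ± 0.090 (adjusted p = 0.0289). In siTAZ 1 of the 10, MAFF, was called lower, at -0.58 ± 0.117 (adjusted p = 0.0145), beside the same 0.695%. In siYAP edgeR called 0 of the 10, and 2 had an unadjusted p under 0.05, beside 11.9% of all genes.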

How the data were processed

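Single reads of poly(A) RNA were trimmed with cutadapt and aligned by the authors to GRCh38 (GENCODE release 34) with STAR 2.4.2a, and the unnormalized counts of reads on each gene were deposited. The strand setting of the counting is not given in the sources used here. The deposited table also holds normalized and rlog values and the authors' own fold changes and p-values, 100 columns in all, which were not used.

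Libraries were grouped by their names. The test was that of edgeR 4.0.16 with TMM scaling (R 4.3.3; quasi-likelihood, robust, one coefficient per group, all 15 libraries), with Benjamini-Hochberg adjustment over 18858 genes. The study's legend to its RNA sequencing results names 3 independent sets without their libraries. No pairing was therefore assumed, and p-values measure the spread between these libraries. SE is the log2 fold change over the root of the F statistic. RPKM used the exon length of GENCODE release 44, which also gave coordinates (GRCh38) and overlaps. Promoters came from RefSeq (GRCh38.p14).

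The members and gene lists were chosen with earlier results of these data known. All members were named. From each list, the called genes with the largest changes in siYAP+TAZ and a mean of at least 20 normalized counts were named, up to 5 per direction for transporters and 3 for the other lists, and the 5 genes most correlated with SLC7A5. A gene that this rule also selects is not reported here. Alternatives were DESeq2 1.42.0, limma-voom (limma 3.58.1), other scalings and filters (at least 10 reads in at least 3 libraries, filterByExpr), no robust estimation, only the groups compared, Control as reference, a block for runs of library numbers and each library left out. Leaving out libraries 26 to 30 was chosen after seeing the data. The tests were checked on simulated data.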

Additional observations from a re-analysis of the deposited data

Results flagged for a closer look

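SLC7A5, SLC7A1 and SLC1A4 were picked out because the effects of the single knockdowns differed by a direct test. The effect of siTAZ minus that of siYAP was 0.39 for SLC7A5 (adjusted p = 0.035), 0.33 for SLC7A1 (adjusted p = 0.0427) and 0.71 for SLC1A4 (adjusted p = 0.0409) on the log2 scale, by edgeR's quasi-likelihood test. All 3 siTAZ libraries were above all 3 siYAP libraries for each gene, and both effects share the siControl libraries. No separate test for a single outlying library was run in groups of 3, but each library was left out in turn. Then 0 members were called without library 18, 24, 28 or 29, and only SLC1A4 without library 23. All 3 were called without library 19. A fit of only siTAZ and siYAP called 0 members.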

How the results depend on the processing

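Of the 17 alternatives for siYAP+TAZ against siControl, SLC7A5, SLC3A2 and SLC7A1 were called lower in all 17, SLC7A6 in 16 and SLC1A5 in 8. The number of members called there was 3 to 5 with 1 library left out. In siYAP, 1 member was called with DESeq2 size factors, library size, either stricter filter, no robust estimation, only the groups compared, or libraries 26 to 30 left out, 0 with any 1 library left out, and 3, with SLC3A2, with DESeq2 or against Control. In siTAZ, 1 was called with DESeq2 or libraries 26 to 30 left out, and 0 to 1 with 1 library left out. Between siYAP+TAZ and siYAP, 3 were called without libraries 26 to 30 and 0 to 1 with 1 left out, and between siYAP+TAZ and siTAZ 6 without libraries 26 to 30. Between siTAZ and siYAP, 1 was called with library size or without libraries 26 to 30, 0 with only the groups compared, and 0 to 3 with 1 left out. With the run of library numbers as a replicate block, 3 members were called in siYAP, 2 in siTAZ, 7 in siYAP+TAZ, 4 between siYAP+TAZ and siYAP, 6 between siYAP+TAZ and siTAZ and 5 between siTAZ and siYAP. The block turned the calls of SLC38A2 (0.57, adjusted p = 8.11e-05) and SLC43A2 (0.64, adjusted p = 0.00104) in siYAP+TAZ, SLC3A2 (adjusted p = 0.0025) in siYAP and SLC1A4 and SLC1A5 in siTAZ. Of all genes, it called 1151 in place of 176 in siYAP, 1942 in place of 383 in siTAZ and 5389 in place of 3464 in siYAP+TAZ, and 2758 in place of 968, 2795 in place of 1025 and 1380 in place of 121 between siYAP+TAZ and siYAP, siYAP+TAZ and siTAZ, and siTAZ and siYAP. Without libraries 26 to 30, these 6 counts were 222, 883, 3758, 1464, 1416 and 56. DESeq2 called 400, 802 and 3656 in the comparisons with siControl. The runs are not a stated pairing. In 26 of 30 pairs of libraries of one run the deviations from the group means correlated above 0.1, and 10 of 15 libraries correlated best with their own run.

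Signs turned for members whose log2 fold change was not called. Without libraries 26 to 30, in siYAP SLC38A1 was at -0.0053 and SLC1A4 was at 0.039, in siTAZ SLC7A5 was at 0.022 and SLC38A2 was at -0.045 and between siControl and Control SLC7A5 was at 0.0074, SLC38A1 was at 0.017, SLC38A2 was at 0.0087 and SLC43A2 was at 0.081. With limma-voom, in siTAZ SLC7A11 was at -0.019. Against Control, in siTAZ SLC7A1 was at -0.036 and in siYAP+TAZ SLC7A11 was at 0.022 and SLC1A4 was at -0.0304. With 1 library left out in turn, these ranges crossed 0. In siYAP, SLC38A1 ran from -0.079 to 0.073 and SLC38A2 from -0.094 to 0.26. In siTAZ, SLC38A1 ran from -0.12 to 0.031, SLC7A5 from -0.11 to 0.054, SLC38A2 from -0.12 to 0.18, SLC7A11 from -0.31 to 0.18 and SLC7A1 from -0.062 to 0.061. Between siControl and Control, SLC3A2 ran from -0.15 to 0.026, SLC38A1 from -0.0601 to 0.086, SLC38A2 from -0.17 to 0.18, SLC7A6 from -0.10 to 0.057, SLC43A2 from -0.22 to 0.19 and SLC7A5 from -0.075 to 0.0396. Between siYAP+TAZ and siTAZ, SLC7A11 ran from -0.42 to 0.081. Between siTAZ and siYAP, SLC1A5 ran from -0.10 to 0.073, SLC38A2 from -0.19 to 0.086, SLC7A6 from -0.073 to 0.12 and SLC38A1 from -0.10 to 0.018. In the interaction, SLC1A5 ran from -0.088 to 0.0895, SLC7A5 from -0.14 to 0.021 and SLC7A1 from -0.11 to 0.0045. The cause was not tested. The planned comparison of protein sequences was not run. At 3 libraries per group, SLC38A2, SLC7A11 and SLC43A2 had SEs from 0.225 to 0.238 in the comparisons with siControl, above those of the other members.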
